A study of Mus musculus with 99 samples.

Results

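The Fos and Jun family comprises 7 genes here, Fos, Fosb, Fosl1, Fosl2, Jun, Junb and Jund, which were found among 55335 gene identifiers by matching their symbols in the GENCODE M21 annotation of the mouse genome. They were followed in bulk RNA sequencing of tissue punches from juvenile C57BL/6 mice of wildtype genotype. The dams had received fentanyl, an opioid agonist, at 10 µg/ml in their drinking water from embryonic day 0 until weaning, or water. Punches came from 5 brain areas: ventral tegmental area (VTA), ventrobasal thalamus (VBT), primary somatosensory cortex (S1), prelimbic cortex (PrL) and nucleus accumbens (NAc). Female and male offspring were sampled separately, which gave 20 groups of region, sex and treatment. Exposure went through the dam in every case, and the labels name neither the litter of each mouse nor its exact age.

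Of 99 libraries, 98 were used. VTA male water 3 was left out because only 6333 genes had a count in it, against at least 24079 in the others. The groups used held 5 libraries each, apart from VTA male water and S1 male water with 4. The 98 libraries held 23032078 to 52069639 reads counted in genes, with a median of 36024982. Markers of dopamine neurons (6 genes) summed to 335 to 1733 counts scaled to a common library total (CPM) in VTA and to at most 69.3 CPM elsewhere, with 0 of the 6 genes at 0 in any VTA library. Markers of thalamic relay neurons were highest in VBT, and those of striatal projection neurons in NAc. Markers of cortical excitatory neurons summed to 1316 to 1845 CPM in S1 and 1426 to 2318 in PrL, but also to 57.4 to 1440.5 in NAc and 171 to 482 in VBT. In bulk tissue, fewer cells of a type and less RNA per cell cannot be told apart.

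Fos and Jun proteins carry a basic region that contacts DNA and a leucine zipper that pairs them. Jun proteins pair with each other or with Fos proteins, whereas Fos proteins need a Jun partner, and the pair is the transcription factor AP-1. In neurons, Fos, Fosb and Junb are classed as immediate early genes: synaptic input and calcium entry act through kinases on factors already bound at their promoters, and the mRNA rises and decays within a short time. Fos is therefore widely used to mark recently active neurons. Fosl1 and Fosl2 encode Fra-1 and Fra-2, Fos proteins without the strong activation domain of Fos. Jun and Jund are transcribed in many resting neurons as well, and a truncated product of Fosb, called delta FosB, builds up in the accumbens after repeated drug exposure. The counts here are per gene and do not separate that form.

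The promoters of 4 members are shown because a motif searched for was found in the part before their start site. No relation between these motifs and the levels was tested, and Fosl2, with no motif in its window, also passed with Fos by r in 2 regions, as given further on. RefSeq entries of build GRCm38.p6 were found for 6 of the 7 members, all but Fosl1. The 110 bases before the RefSeq start site are given from 5′ to 3′ in the direction of the gene, with capitals for TGACG, the core of the cyclic AMP response element, for TATAAA, the TATA box, and for TGACATCA, the variant AP-1 site of Jun.
Fos (chr12:85473780-85473889, plus strand): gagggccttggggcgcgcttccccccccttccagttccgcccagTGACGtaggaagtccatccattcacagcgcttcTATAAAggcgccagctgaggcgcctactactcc
Fosb (chr7:19310046-19310155, minus strand): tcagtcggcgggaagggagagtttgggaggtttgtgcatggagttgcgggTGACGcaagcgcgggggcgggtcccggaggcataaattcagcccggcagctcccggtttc
Junb (chr8:84978749-84978858, minus strand): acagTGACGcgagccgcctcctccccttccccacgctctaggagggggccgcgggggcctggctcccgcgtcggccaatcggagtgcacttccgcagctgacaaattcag
Jun (chr4:95052223-95052332, minus strand): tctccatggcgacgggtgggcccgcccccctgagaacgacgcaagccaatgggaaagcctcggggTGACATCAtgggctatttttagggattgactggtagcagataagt

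Counted from the start site, TGACG lies at -66 to -62 in Fos, at -60 to -56 in Fosb and at -106 to -102 in Junb, and Fos has another copy upstream of the stretch shown, at -129 to -125. TATAAA of Fos lies at -33 to -28 and TGACATCA of Jun at -45 to -38. Both strands of the 250 bases before each start were searched. Of 32851 mouse promoter windows of the same length, 17.8% hold TGACG, 7.59% TATAAA and 2.93% TGACATCA, so TGACG in particular is a common word. The full element TGACGTCA, which contains TGACG, and the AP-1 site TGACTCA were in none of the 6 windows, nor was the CArG box. Sites farther than 250 bases before a start were not searched, so this does not show that Fos lacks a CArG box. No motif was found in the windows of Fosl2 and Jund. The RefSeq starts of Fosl2 (chr5:32136472), Jund (chr8:70697739), Fosb (chr7:19310045) and Junb (chr8:84978748) differ from the gene starts in GENCODE M21 given with each gene, and windows before the GENCODE starts were not searched.

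Fos (ENSMUSG00000021250, chr12:85473890-85477273, plus strand) encodes the founding member of the family. Its mean was highest in the cortex, at 21.6 CPM ± 13.5 (SD, n = 19) in S1 and 19.1 ± 9.08 (n = 20) in PrL. NAc had 11.8 ± 5.47 (n = 20), VBT 11.2 ± 4.64 (n = 20) and VTA 8.51 ± 4.20 (n = 19). The test did not separate S1 and PrL, with a log2 difference of -0.05 (PrL minus S1, SE 0.20, adjusted p = 0.850 in edgeR's quasi-likelihood test). NAc was lower than PrL by a log2 difference of -0.77 (SE 0.20, adjusted p = 0.000633, edgeR), and NAc and VBT were not separated, at -0.07 (SE 0.20, adjusted p = 0.774, edgeR). VBT was 0.63 above VTA on the log2 scale (SE 0.21, adjusted p = 0.00629, edgeR).

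Part of this order was not found in water libraries alone. With those, S1 was 0.34 above VBT on the log2 scale (SE 0.26, adjusted p = 0.242, edgeR) in place of 0.76 (SE 0.21, adjusted p = 0.000716, edgeR) over all libraries. PrL was then 0.43 above VBT (adjusted p = 0.127, edgeR), and NAc was not separated from S1 (-0.46, adjusted p = 0.132, edgeR) or PrL (-0.55, adjusted p = 0.0665, edgeR).

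Fosb (ENSMUSG00000003545, chr7:19302696-19310051, minus strand) separated the regions far more sharply. It averaged 1.24 CPM ± 0.411 in VTA and 1.20 ± 0.414 in VBT, against 10.1 ± 3.75 in S1, 14.5 ± 6.14 in PrL and 11.2 ± 3.54 in NAc (SD, n = 19 or 20 as above). The highest VTA or VBT library, at 2.43 CPM, was below the lowest of the other 3 regions, at 3.72 CPM. PrL exceeded VTA by 3.67 on the log2 scale (SE 0.17, adjusted p = 8.12e-34, edgeR), while VBT and VTA differed by 0.12 (SE 0.18, adjusted p = 0.578, edgeR). PrL was also above S1, by 0.59 (SE 0.15, adjusted p = 0.000388, edgeR).

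Junb (ENSMUSG00000052837, chr8:84974484-84978718, minus strand), a primary response gene that encodes a Jun protein, followed the same division. PrL had 37.6 CPM ± 13.9, NAc 34.4 ± 10.55 and S1 29.9 ± 14.4, against 7.62 ± 1.23 for VBT and 5.79 ± 1.07 for VTA (SD, n as above). Its log2 difference between S1 and VTA was 2.38 (SE 0.14, adjusted p = 1.52e-26, edgeR), and the test did not separate NAc from PrL (-0.19, SE 0.13, adjusted p = 0.180, edgeR) or S1 (0.22, SE 0.13, adjusted p = 0.140, edgeR). With a block for sex, treatment and number, Junb was higher in NAc than in S1, by 0.26 (SE 0.10, adjusted p = 0.0194, edgeR). Of its exon bases, 7.52% are shared with Prdx2 on the other strand, and the library kit does not mark strand.

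Fosl2 (ENSMUSG00000029135, chr5:32135801-32157842, plus strand) was highest in NAc, at 45.8 CPM ± 12.3, followed by S1 at 39.7 ± 14.0 and PrL at 34.3 ± 9.03, with 8.83 ± 2.72 in VBT and 7.91 ± 1.37 in VTA. NAc was above PrL by 0.33 on the log2 scale (SE 0.11, adjusted p = 0.00457, edgeR) and the test did not separate it from S1 (0.16, SE 0.11, adjusted p = 0.190, edgeR). NAc was above S1 with a block for sex, treatment and number (0.15, adjusted p = 0.0445, edgeR) and in water libraries alone (0.35, adjusted p = 0.0101, edgeR). With that block PrL was below S1 (-0.17, adjusted p = 0.0360, edgeR). The highest VBT library, at 15.3 CPM, stayed below the lowest library of S1, PrL and NAc, at 23.1 CPM.

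Jun (ENSMUSG00000052684, chr4:95049034-95052222, minus strand) went the other way. It was highest in VBT, at 71.3 CPM ± 5.73, where all 20 libraries, from 62.3 to 82.1 CPM, lay above every library of the other 4 regions. The means elsewhere were 46.2 ± 5.65 in PrL, 45.3 ± 4.67 in VTA, 43.0 ± 6.66 in S1 and 39.95 ± 5.98 in NAc. VBT exceeded VTA by 0.81 (SE 0.05, adjusted p = 2.98e-25, edgeR) and NAc was below VBT by a log2 difference of -0.95 (SE 0.05, adjusted p = 2.72e-30, edgeR), whereas S1 and VTA differed by 0.02 (SE 0.05, adjusted p = 0.764, edgeR). In water libraries alone S1 was below VTA, by a log2 difference of -0.17 (SE 0.07, adjusted p = 0.0415, edgeR).

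**Figure D1:**
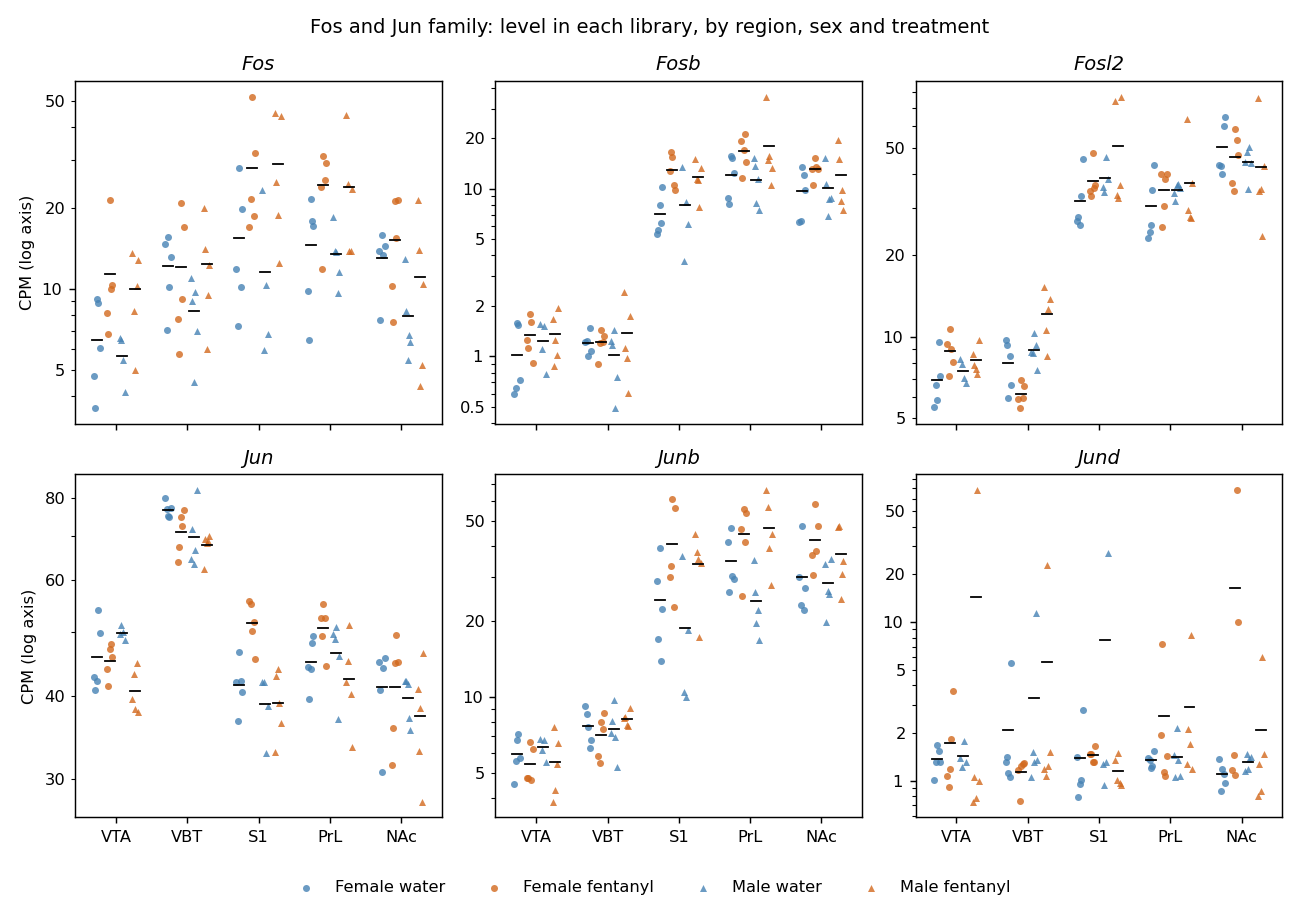
Level of 6 family members in CPM (log axes) in each of 98 libraries, by region, with circles for females, triangles for males, blue for water and orange for fentanyl, and a black line at each group mean. Fosb, Fosl2 and Junb sit low in VTA and VBT and high in S1, PrL and NAc, Jun is highest in VBT, and most Jund libraries lie near 1.27 CPM with 11 at 3 CPM or more.

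Set per exon length, as RPKM (CPM divided by exon length in kilobases), the members changed places between regions. Jun held 62.3% ± 11.3 of the family's summed RPKM in VTA and 67.5% ± 6.86 in VBT, but 33.7% ± 9.34 in S1, 32.8% ± 7.04 in PrL and 31.3% ± 6.97 in NAc. Junb held 10.99% ± 2.46 in VTA and 9.99% ± 1.76 in VBT, and 28.9% ± 7.21, 34.7% ± 6.50 and 36.1% ± 7.42 in S1, PrL and NAc. Mean RPKM was 14.2 for Jun and 2.51 for Junb in VTA, and 12.5 for Jun and 14.96 for Junb in NAc. Of the Fos genes with a regular signal, Fosb was the lowest, at 0.193 RPKM in VBT and 2.32 in PrL.

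Between regions, 6 of the 7 members could be tested, since Fosl1 did not pass the filter on low counts. The number called at an adjusted p under 0.05 was 4 of 6 for VBT against VTA (66.0% of all genes tested were called in that comparison), 4 for S1 against VTA (74.0%), 5 for PrL against VTA (75.8%) and 5 for NAc against VTA (75.4%). It was 5 for S1 against VBT (74.3%), 5 for PrL against VBT (76.1%) and 4 for NAc against VBT (75.9%), then 3 for PrL against S1 (52.2%), 2 for NAc against S1 (64.7%) and 4 for NAc against PrL (65.7%). Most genes were called in each comparison, so these counts show nothing particular to the members. Jund passed in none of the 10, but in water libraries alone it passed in 5, all of them comparisons with S1 or VBT. Those regions hold the 3 water libraries with high Jund, S1 male water 5 at 27.2 CPM, VBT male water 4 at 11.5 and VBT female water 5 at 5.53, so no direction is drawn from these calls.

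Fosl1 (ENSMUSG00000024912, chr19:5447547-5455946, plus strand) was near the detection limit. Its count was 0 in 52 of 98 libraries and at most 7 in any library, which is 0.221 CPM. A count of 0 allows a level of up to 3 counts, or 0.0576 to 0.130 CPM depending on depth, and 7 libraries exceeded that limit. Of its exon bases, 57.2% are shared with Ccdc85b on the other strand, which had a median of 64.7 CPM. How the reads of the shared stretch were assigned is not given in the sources used here.

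Jund (ENSMUSG00000071076, chr8:70698949-70700616, plus strand) was low in most libraries and high in a few. In 87 libraries it lay between 0.737 and 2.80 CPM with a median of 1.27. In 11 libraries it reached 3 CPM or more, a threshold chosen after its values were seen. The 4 highest were VTA male fentanyl 4 at 68.1 CPM (2600 counts), NAc female fentanyl 4 at 68.0 CPM (2498 counts), S1 male water 5 at 27.2 CPM (1094 counts) and VBT male fentanyl 3 at 23.0 CPM (990 counts). These 11 came from all 5 regions, 8 of them fentanyl and 3 water, and the other libraries of their groups stayed at the low level.

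Jund has 877 of its 1668 exon bases, 52.6%, in common with Gm11175, an annotated gene on the opposite strand, and its exons hold 67.1% G and C. Gm11175 lay at no more than 0.137 CPM in the 87 libraries with low Jund, of which 26 had no count, and between 0.0772 and 3.51 CPM in the 11 with high Jund. Of those 11, 9 were above all of the 87, and the other 2, at 5.53 and 3.67 CPM of Jund, were within their range. Reads from the shared stretch cannot be assigned to one strand with this kit, and the total counts of the 11 libraries, 30510518 to 44274069, lay within the range of the rest. Levels of Jund below are therefore values of these libraries, and no direction is drawn from them.

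**Figure D2:**
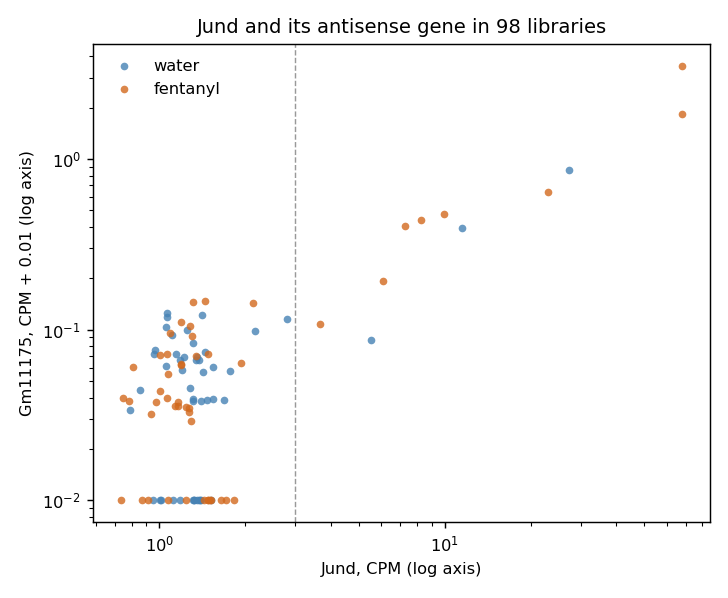
Jund (x axis, CPM) against its antisense neighbour Gm11175 (y axis, CPM with 0.01 added so that libraries with no count can be drawn), both on log axes, 1 point for each of 98 libraries, blue for water and orange for fentanyl. Of the 11 libraries to the right of the dashed line at 3 CPM of Jund, 9 lie above every other library in Gm11175, up to 3.51 CPM.

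Libraries of one group differed widely in Fos. The highest library of a group exceeded the lowest by 1.58 to 4.91 times over the 20 groups, with a median of 2.93 times. For Jun the median ratio was 1.26 times, for Fosl2 1.60, for Junb 1.93, for Fosb 2.02 and for Jund 3.79, reaching 92.4 for Jund. As a pooled standard deviation of log2(CPM + 1) within groups, Fos had 0.73 in S1, 0.60 in NAc, 0.56 in PrL and VBT, and 0.49 in VTA. The median gene had 0.15 to 0.17, and Fos lay at the 97.2nd percentile of all genes tested in VTA and the 99.7th in S1.

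Fosb, Fosl2 and Junb had larger standard deviations on this scale in S1, PrL and NAc than in VTA and VBT, which was not tested. In the first 3 regions they lay between 0.35 and 0.62, at the 94.1st to 99.4th percentile. In VTA and VBT they lay between 0.20 and 0.28, at the 70.4th to 88.2nd percentile. The added 1 compresses low values, and as a ratio of highest to lowest CPM Fosb had a median of 2.101 times in VTA and VBT and 2.001 times in the others. For Junb these medians were 1.52 and 2.17 times, and for Fosl2 1.44 and 1.66 times. Jun stayed at the 21.9th percentile in VBT and reached at most the 74.7th, in NAc. A low level adds counting error to the spread, and against genes of similar expression (10 equal classes) Fos was at the 94.9th percentile in VTA and the 99.8th in S1.

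**Figure D3:**
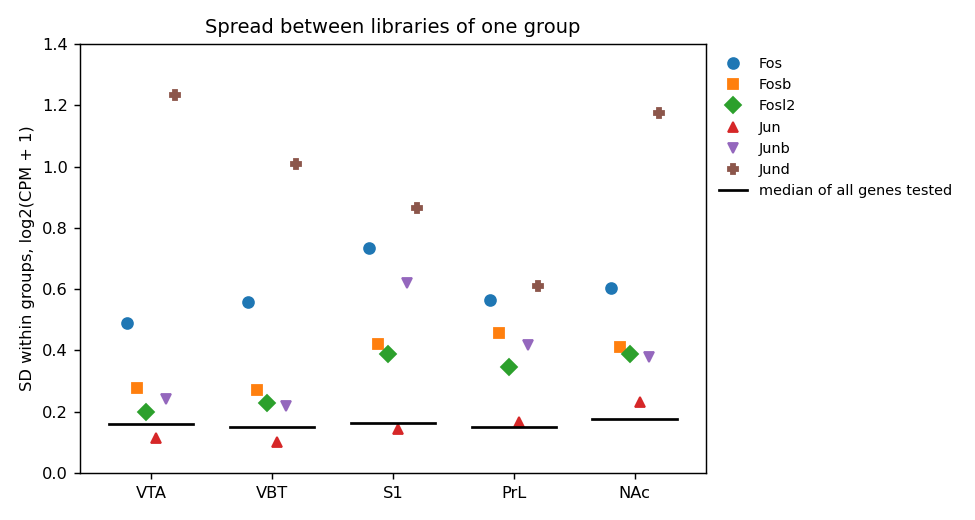
Pooled standard deviation of log2(CPM + 1) between libraries of one group (y axis) for 6 members in each region (x axis), with a black line at the median over all genes tested in that region. Fos lies between 0.49 and 0.73 in every region, above the lines at 0.15 to 0.17, and Jun stays near them.

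Each sex and treatment has numbers 1 to 5 in every region, apart from S1 male water, which has no number 2, and the labels do not say whether a number marks one mouse. Over all genes, libraries with the same sex, treatment and number in 2 regions deviated together slightly, with a mean correlation of 0.0163 to 0.129 across genes. For different numbers it was -0.0319 to -0.00353, and the same number was higher in 10 of 10 pairs of regions.

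Fos was the member in which the numbers carried over most. In the order VTA, VBT, S1, PrL and NAc, female fentanyl 3 had 21.5, 20.8, 51.8, 31.1 and 21.3 CPM. Male fentanyl 1 had 13.6, 19.9, 44.9, 44.3 and 21.5 CPM. Both were at or near the top of every region, well above the region means.

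At the other end, female water 2 had 3.59, 7.06, 7.28, 6.46 and 7.66 CPM. Male water 5 had 4.15, 7.001, 6.80, 11.6 and 6.37 CPM. Female fentanyl 2 was low in 4 regions, at 6.78, 5.74, 11.8 and 7.56 CPM in VTA, VBT, PrL and NAc, and had 21.6 CPM in S1. Low numbers were thus found in both treatments.

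With group means removed, Fos in libraries of the same number was correlated between all 10 pairs of regions. Pearson's r ran from 0.69 (VTA and S1, n = 18) to 0.90 (VBT and NAc, n = 20), and Spearman's rho from 0.67 to 0.89. Permutation of libraries within groups (100000 resamples, two-sided) gave adjusted p-values of at most 0.0172 for r and 0.0226 for rho over the 60 relations computed, 10 for each of 6 members. Without the 2 libraries farthest from the median of the first region, r ran from 0.58 to 0.91. This comparison was added after the data were seen.

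The other members carried over less widely. Of their 10 pairs of regions each, r passed the same threshold in 5 for Fosl2, 3 for Junb, 2 for Fosb, 1 for Jun and 0 for Jund, by the same permutation test. The 3 pairs of Junb were those among S1, PrL and NAc (r = 0.64 to 0.72), and Fosb reached 0.81 between PrL and NAc. For Fosl2 those 3 pairs gave r = 0.71 to 0.78, and VTA with S1 (0.54) and with NAc (0.56) also passed. Jun passed between S1 and PrL alone (r = 0.67), where rho did not (0.57, adjusted p = 0.0773, permutation). By rho Jund passed between VTA and NAc (0.71, adjusted p = 0.0453, permutation), where r did not (0.44, adjusted p = 0.111, permutation). Whether the r of Fos exceeds that of the others was not tested.

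**Figure D4:**
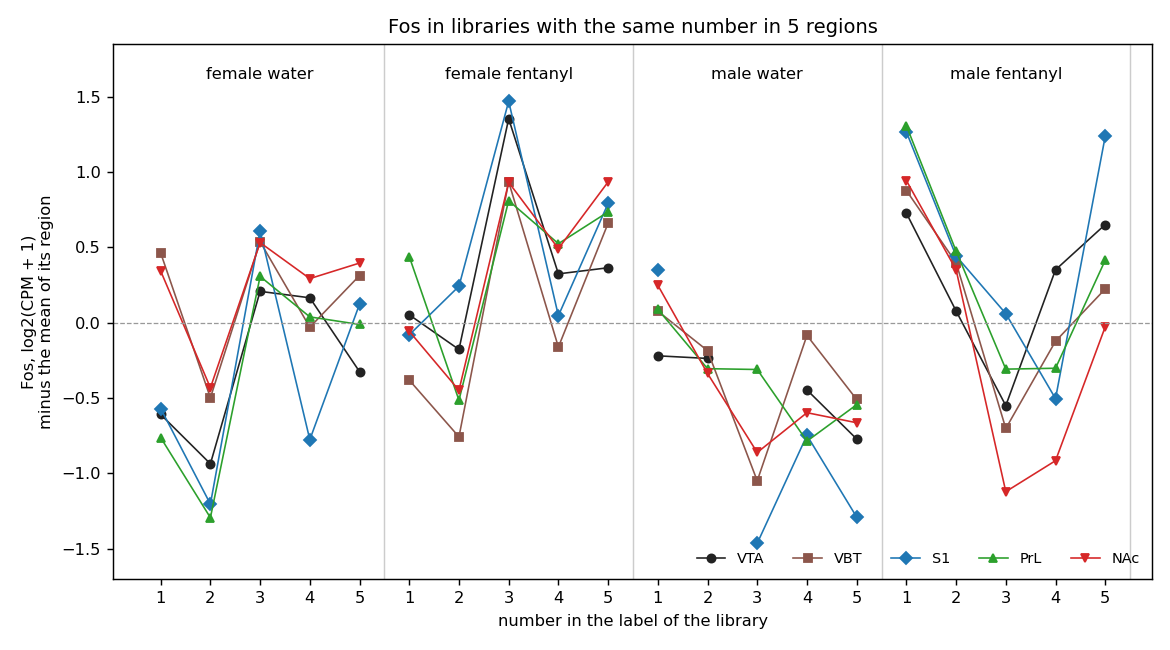
Fos as log2(CPM + 1) minus the mean of its region (y axis) for each number in the labels (x axis), in 4 blocks of sex and treatment, with 1 line for each region; the numbers have no order and lines only join the points of a region. The lines follow each other within most blocks, with female fentanyl 3 and male fentanyl 1 high in all 5 regions and female water 2 low in all 5.

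Within a region, Fosb followed Fos from library to library in 4 of 5 regions and Junb in 3. With group means removed, Fos and Fosb had r = 0.69 in VTA (n = 19), 0.74 in S1 (n = 19), 0.76 in PrL (n = 20) and 0.73 in NAc (n = 20), with adjusted p-values of 0.0124, 0.00635, 0.00537 and 0.00537 (permutation within groups, 25 relations). Spearman's rho was 0.67, 0.73, 0.75 and 0.65. Fos and Junb had r = 0.79 in S1, 0.75 in PrL and 0.71 in NAc (rho 0.75, 0.76 and 0.76, adjusted p at most 0.00762 for r and 0.00869 for rho, permutation). Junb did not pass in VTA (r = 0.48, adjusted p = 0.148; rho 0.51, adjusted p = 0.111, permutation). Fosl2 passed in PrL and NAc (r = 0.68 in both, adjusted p = 0.0245 by permutation), though its rho did not (0.57 and 0.58, adjusted p = 0.0767 and 0.0608), and it did not pass in VTA (r = 0.58, adjusted p = 0.0562, permutation) or S1 (r = 0.53, adjusted p = 0.0799, permutation).

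In VBT none of the 5 relations passed, with r of -0.20 to 0.29 (permutation). Jun and Jund passed with Fos in no region. Without the 2 libraries farthest from the median of Fos, 8 of the 9 relations called by r still passed, and Fosl2 in PrL had r = 0.55 (adjusted p = 0.130, permutation). By rho 6 of 7 still passed, and Fosb in VTA had 0.64 (adjusted p = 0.0578, permutation).

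By the same measure, averaged over the 5 regions among 14006 genes, the genes most like Fos were Nr4a1 (mean r = 0.85), 1700016P03Rik (0.79), Egr1 (0.78), Dusp1 (0.73) and Dusp5 (0.67). Nr4a1 and Egr1 encode primary response transcription factors, and Dusp1 and Dusp5 phosphatases that act on MAP kinases. Fosb came at rank 7, Junb at 11 and Fosl2 at 19, while Jun was at 805 and Jund at 11589. Arc, which acts at synapses, had r = 0.81 to 0.90 with Fos in S1, PrL and NAc but -0.29 in VBT. These correlations are descriptions over 98 libraries of shared regions and numbers.

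The nearest genes to Junb were Nr4a1 (mean r = 0.69), Dusp1 (0.69) and the clock gene Per1 (0.67), and Fosb was nearest to Fos (0.64), Egr1 (0.63) and P4ha1 (0.63). Fosl2 was nearest to P4ha1 (0.66), Pdia4 (0.66) and Dnajb11 (0.65), whose proteins reside in the endoplasmic reticulum and modify or fold other proteins. Jun was nearest to Sh2d3c (0.56), Prr13 (0.52) and Dync1i1 (0.52), and the highest mean r of any gene with Jund was 0.38 (Eme2).

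Perinatal fentanyl was compared with water within each region, for each sex, for both sexes together (the average of the female and male differences) and for the difference between the sexes (male minus female). Fos in VTA was the one member that passed over both sexes. In VTA females, the water libraries had 4.77, 3.59, 9.16, 8.86 and 6.02 CPM and the fentanyl libraries 8.12, 6.78, 21.5, 10.0 and 10.3 CPM. In VTA males, the 4 water libraries had 6.55, 6.46, 5.45 and 4.15 CPM and the fentanyl libraries 13.6, 8.28, 5.01, 10.2 and 12.8 CPM. Groups overlapped in both sexes, through the water libraries at 9.16 and 8.86 CPM in females and through the fentanyl library at 5.01 CPM in males.

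Fos rose in VTA by 0.83 on the log2 scale over both sexes (SE 0.24, adjusted p = 0.0217, edgeR). The female difference was 0.79 (SE 0.33, adjusted p = 0.348, edgeR), the male one 0.86 (SE 0.36, adjusted p = 0.0972, edgeR), and the test did not separate the sexes (0.06, SE 0.48, adjusted p = 0.968, edgeR). This was 1 member of 6 in a comparison in which 23.1% of all genes tested were called, so a single call is near the background. Leaving out each of the 19 libraries in turn gave 0.64 to 0.91 with adjusted p-values of 0.0118 to 0.0497 (edgeR). Offsets for GC content, which cut the calls over all genes from 4580 to 914 (4.61%), left 0.88 (adjusted p = 0.0473, edgeR).

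The call did not hold in limma-voom with sample weights (0.49, adjusted p = 0.176), without the filter on low counts (0.82, adjusted p = 0.0591, edgeR) or with VTA male water 3 kept (0.98, adjusted p = 0.682, edgeR). Markers of cortical excitatory neurons (6 genes) summed to 8.21 to 26.8 CPM in VTA female water, 17.1 to 174 in female fentanyl, 9.498 to 16.6 in male water and 12.8 to 73.8 in male fentanyl. Blood markers (5 genes) summed to 79.6 to 330, 105 to 572, 74.0 to 248 and 82.6 to 490 CPM in the same order. At most 1 of the 6 cortical markers and no blood marker was at 0 in any of these libraries, and the part of either in the Fos difference was not tested.

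Jun fell in VTA males, by 0.25 on the log2 scale (SE 0.08, adjusted p = 0.0338, edgeR). The 4 water libraries had 49.7, 51.4, 50.1 and 48.7 CPM and the 5 fentanyl libraries 39.6, 43.3, 38.3, 45.0 and 37.9 CPM. The groups did not overlap, as was the case for 22.4% of all genes tested, and 22.0% of all genes were called, against 1 of 6 members. With offsets for GC content the difference was -0.05 (adjusted p = 0.739, edgeR), and with VTA male water 3 kept it was 0.07 (adjusted p = 0.9996, edgeR). It stayed past the threshold in 12 of the 19 fits that left out 1 library, the largest adjusted p being 0.0886, without VTA male water 2. Dopamine neuron markers (6 genes, none at 0) summed to 335 to 1240 CPM (median 678) in male fentanyl and 864 to 1499 (median 1143) in male water, and their part in the Jun difference was not tested. In VTA females Jun differed by -0.04 (SE 0.08, adjusted p = 0.871, edgeR), and the test did not separate the sexes (-0.22, SE 0.11, adjusted p = 0.468, edgeR).

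In S1, PrL, NAc and VBT no member passed in edgeR in any of the 16 comparisons. The share of all genes called was 0.142% in S1 females, 1.03% in S1 over both sexes, 0.021% in PrL females, 0.697% in PrL over both sexes, 0.662% in NAc males and 0.0% in the other 11. At an unadjusted p under 0.05, 5 of 6 members passed in S1 over both sexes (15.8% of all genes), 4 in PrL (19.1%), 2 in NAc (12%) and 0 in VBT (8.49%). Jund is among them in S1, where its estimate was below 0, in PrL and in NAc. Without Jund the counts were 4 of 5 in S1, 3 in PrL, 1 in NAc and 0 in VBT. In the other 12 comparisons of these regions 0 to 3 of 6 members passed, and 2.59% to 17.6% of all genes. VTA females and the VTA difference between the sexes also had 0 members called (0.0% of all genes in both), with 2 and 0 members at an unadjusted p under 0.05 (12.7% and 11.4% of all genes). In VTA males 3 of 6 members were at an unadjusted p under 0.05 (34.7% of all genes), and over both sexes 4 of 6 (35.4%). Without Jund these VTA counts were 2 of 5 in males and 3 of 5 over both sexes. The 6 members had a median log2 fold change of 0.26 in VTA over both sexes. The median log2 fold change of the 6 members was 0.54 in S1, 0.65 in PrL, 0.37 in NAc and 0.01 in VBT, where the median of all genes was within 0.01 of 0. Without Jund it was 0.74 in S1, 0.60 in PrL, 0.36 in NAc and 0.02 in VBT, so the order of S1 and PrL turned.

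In these regions and in VTA females, 0 of 6 members had fentanyl and water groups without overlap within a sex. Groups without overlap were found for 1.61% of all genes in VTA females, 2.06% in VBT females, 0.967% in VBT males, 4.22% in S1 females, 1.72% in S1 males, 2.18% in PrL females, 2.0% in PrL males, 0.755% in NAc females and 3.5% in NAc males.

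In S1, the female water libraries had 11.8, 7.28, 28.1, 10.1 and 19.8 CPM of Fos and the female fentanyl libraries 17.0, 21.6, 51.8, 18.7 and 32.0. The male water libraries had 23.3, 5.91, 10.4 and 6.80 CPM and the male fentanyl libraries 44.9, 24.9, 18.9, 12.4 and 43.9. The groups overlapped in both sexes, and Fos passed neither in females (adjusted p = 0.454, edgeR) nor in males (adjusted p = 0.668, edgeR). The difference over both sexes was 1.12 on the log2 scale (SE 0.36, unadjusted p = 0.00743, adjusted p = 0.148, edgeR).

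Fosb in S1 females ranged from 5.34 to 10.2 CPM in water and from 9.83 to 16.6 CPM in fentanyl, and in males from 3.72 to 13.5 and from 7.76 to 15.05 CPM. Its difference over both sexes was 0.74 (SE 0.21, adjusted p = 0.0918, edgeR), and without S1 male water 1, the water library at 13.5 CPM, it was 0.93 (adjusted p = 0.0314, edgeR). Junb over both sexes differed by 0.81 (SE 0.29, adjusted p = 0.190, edgeR) and Jun by 0.17 (SE 0.06, adjusted p = 0.199, edgeR). Jun in S1 females lay at 36.7 to 46.7 CPM in water and 45.5 to 55.8 in fentanyl, a difference of 0.31 (SE 0.09, adjusted p = 0.115, edgeR) that passed in limma-voom (0.32, adjusted p = 0.0485; 1.06% of all genes called). Cortical excitatory markers (6 genes) in S1 summed to 1316 to 1555 CPM in female water, 1488 to 1797 in female fentanyl, 1433 to 1590 in male water and 1557 to 1845 in male fentanyl. Their part in these differences was not tested.

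In PrL, Fos averaged 24.3 CPM ± 7.59 in fentanyl and 14.6 ± 6.24 in water for females, and 23.96 ± 12.5 in fentanyl and 13.4 ± 3.31 in water for males (SD, n = 5 per group). The difference over both sexes was 0.81 (SE 0.26, adjusted p = 0.114, edgeR). Junb in PrL males had 34.99, 26.2, 19.8, 22.2 and 16.9 CPM in water and 66.5, 57.0, 39.2, 27.9 and 44.6 in fentanyl. Only the fentanyl library at 27.9 CPM overlapped the water range, and the difference was 0.996 (SE 0.27, unadjusted p = 0.00159, adjusted p = 0.315, edgeR). Over both sexes Junb differed by 0.69 (SE 0.19, adjusted p = 0.0839, edgeR) and Fosb by 0.60 (SE 0.22, adjusted p = 0.160, edgeR).

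The percent of reads outside exons also differed with treatment in PrL. It was 9.99 to 11.8 in female fentanyl against 12.1 to 14.1 in female water, without overlap, and 10.9 to 12.9 against 12.7 to 14.5 in males. With this percent as a covariate the differences over both sexes were 0.77 for Fos (SE 0.54, adjusted p = 0.785, edgeR), 0.40 for Fosb (SE 0.45, adjusted p = 0.883, edgeR) and 0.57 for Junb (SE 0.38, adjusted p = 0.767, edgeR). Markers of olfactory bulb mitral cells (4 genes) summed to 171 CPM in female water 5, 324 in male water 3 and 31.0 in male water 4, and to at most 8.63 CPM in the other 17 PrL libraries, with at most 1 gene at 0. Without male water 3 Fos differed by 0.81 (adjusted p = 0.183, edgeR) and Junb by 0.65 (adjusted p = 0.143, edgeR), and without female water 5 by 0.84 (adjusted p = 0.184, edgeR) and 0.66 (adjusted p = 0.158, edgeR).

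DESeq2's Wald test, run as an alternative, called Fos (1.11, adjusted p = 0.0476) and Fosb (0.73, adjusted p = 0.0297) in S1 over both sexes, where it called 3.27% of all genes against 1.03% in edgeR. In PrL over both sexes it called Fos (0.82, adjusted p = 0.0414) and Junb (0.69, adjusted p = 0.0170), with 4.08% of all genes called against 0.697%. Both tools read the same libraries and gave fold changes close to each other, and they differed in the p-values.

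In NAc, Fos over both sexes differed by 0.36 (SE 0.28, adjusted p = 0.630, edgeR), Fosb by 0.37 (SE 0.19, adjusted p = 0.449, edgeR) and Junb by 0.46 (SE 0.17, adjusted p = 0.319, edgeR). Fosb in the NAc averaged 13.1 CPM ± 1.68 in fentanyl and 9.66 ± 3.26 in water for females, and 12.1 ± 5.06 in fentanyl and 10.05 ± 3.19 in water for males. The regions were not tested against each other. In NAc females, striatal markers (6 genes) summed to 2198 to 3251 CPM (median 2580) in fentanyl and 1096 to 3014 (median 1506) in water. Cortical excitatory markers had medians of 596 and 1045 CPM, no gene of either list was at 0, and their part in the values was not tested.

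In VBT females, Fos averaged 12.1 CPM ± 6.47 after fentanyl and 12.1 ± 3.49 after water, a difference of -0.01 (SE 0.36, adjusted p = 0.997, edgeR). Fosl2 had the lowest unadjusted p of the members for the difference between the sexes there. Female libraries had 9.77, 9.30, 5.97, 8.49 and 6.64 CPM in water and 5.89, 5.44, 6.94, 5.95 and 6.57 in fentanyl, and male libraries 8.80, 8.70, 10.4, 9.36 and 7.55 in water and 15.3, 10.6, 8.47, 12.6 and 13.8 in fentanyl. The female difference was -0.39 (SE 0.15, adjusted p = 0.486, edgeR) and the male one 0.43 (SE 0.15, adjusted p = 0.364, edgeR). Their difference was 0.82 (SE 0.21, unadjusted p = 0.000878, adjusted p = 0.234, edgeR), which DESeq2 called (0.81, adjusted p = 0.0367; 0.576% of all genes called). Estimates of Fos, Junb and Jund also had opposite signs in the sexes, and none of these passed.

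Markers of striatal projection neurons (6 genes, none at 0) summed in VBT to 102 to 496 CPM in female water and 91.6 to 100.2 in female fentanyl, without overlap, and to 100.004 to 714 in male water and 54.5 to 293 in male fentanyl. Choroid plexus markers (5 genes, at most 1 at 0) summed to 4526 CPM in female water 2, 233 in female water 3 and 651 in male fentanyl 5, and to at most 33.4 in the other 17 VBT libraries. Without female water 2 the female difference of Fosl2 was -0.35 (adjusted p = 0.842, edgeR) and the difference between the sexes 0.77 (adjusted p = 0.312, edgeR). The part of either list in these differences was not tested.

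**Figure D5:**
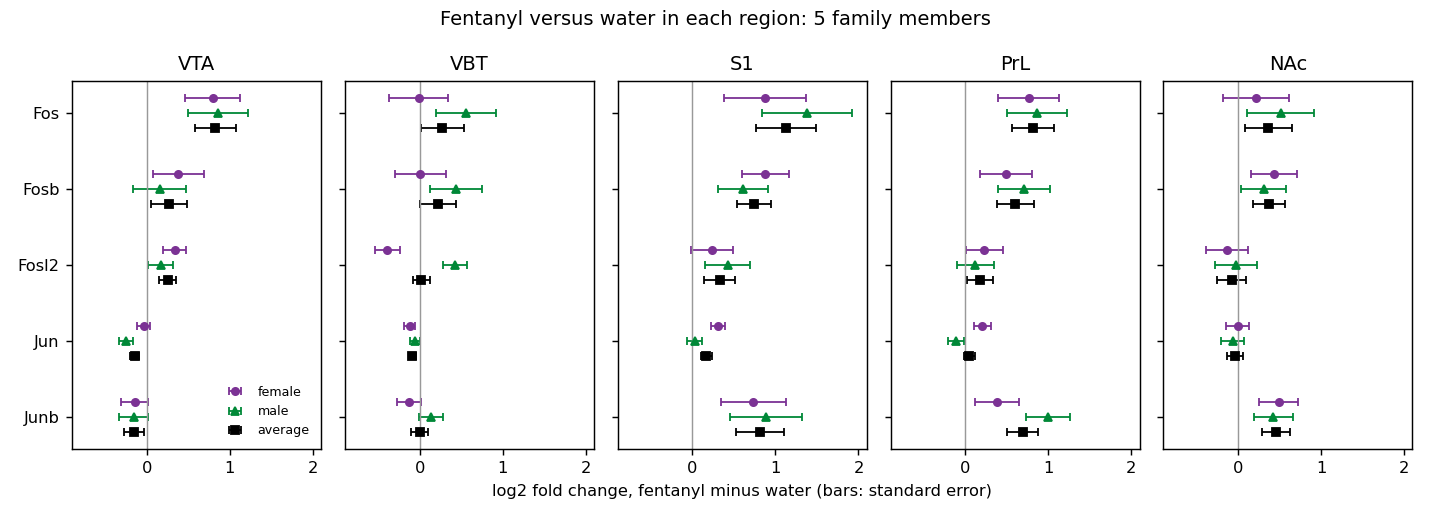
Log2 fold change of fentanyl against water (x axis) with its standard error for 5 members in each region, for females (circles), males (triangles) and both sexes (squares); Jund is left out. Fos, Fosb and Junb lie to the right of 0 in S1, PrL and NAc in both sexes, and Fosl2 in VBT lies at -0.39 in females and 0.43 in males.

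Fold changes of Jund depended on single high libraries. In NAc females the estimate was 3.88 (SE 1.05, adjusted p = 0.544, edgeR), with 68.0 and 9.97 CPM in fentanyl 4 and 5 and the rest at the low level. In VTA males it was 3.41 (adjusted p = 0.0658, edgeR) with all libraries and -0.65 (adjusted p = 0.194, edgeR) without fentanyl 4. In S1 over both sexes it was -1.33 (adjusted p = 0.272, edgeR), and 0.02 (adjusted p = 0.984, edgeR) without male water 5.

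Because Fos carried over between regions with the number, the regional differences are not independent of each other if a number marks a mouse. The mean over regions of log2(CPM + 1), with each region centred on its own mean, was therefore taken for each sex, treatment and number, over 4 regions for male water 2 and 3. For Fos in females it was 0.34 ± 0.57 after fentanyl and -0.13 ± 0.49 after water, and in males 0.21 ± 0.63 and -0.47 ± 0.41 (SD, n = 5 numbers per group). The difference over both sexes was 0.57 (exact permutation of treatment within each sex, two-sided p = 0.0241). In females alone it was 0.47 (exact p = 0.206) and in males 0.68 (exact p = 0.0873).

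For Fosb the difference over both sexes was 0.36 (exact permutation p = 0.00945) and for Junb 0.35 (exact permutation p = 0.0139). For Fosl2 it was 0.10 (exact permutation p = 0.385), for Jun -0.02 (exact permutation p = 0.575) and for Jund 0.25 (exact permutation p = 0.267). In female Fosb, 4 of 5 fentanyl numbers lay above the highest water number (difference 0.39, exact p = 0.0159), and in male Jun the difference was -0.12 (exact p = 0.0476). Outside the family, Egr1 had 0.36 (exact permutation p = 0.0124) and Arc 0.37 (exact permutation p = 0.0819) over both sexes. The share of all genes under 0.05 in this test was not computed, so the values show nothing particular to the family. The 6 members were compared after the data were seen, the p-values are not adjusted, and the differences repeat in part those given by region. The labels give no litters, and litter and treatment cannot be told apart.

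The partners and regulators of the family were taken from 4 lists. Of the AP-1 partners (ATF, BATF and MAF genes, Jdp2 and Nrl), 12 of 14 were tested in VTA, where 2 rose and 1 fell over both sexes, a share near the 23.1% of all genes called. With GC offsets 0 of these 3 were still called. Atf3, a stress-induced partner of Jun, rose by 0.68 (SE 0.22, adjusted p = 0.0280, edgeR), and by 0.74 with GC offsets (adjusted p = 0.0575, edgeR). Atf2 rose by 0.23 (adjusted p = 0.00480, edgeR), and by 0.05 with GC offsets (adjusted p = 0.440, edgeR). Mafg differed by -0.19 (adjusted p = 0.00555, edgeR), and by -0.06 with GC offsets (adjusted p = 0.283, edgeR). Of 23 upstream kinases and factors, 8 rose and 4 fell in VTA over both sexes, against 23.1% of all genes called, and 0 of these 12 were still called with GC offsets. In VTA males 11 of the 23 were called (22.0% of all genes), and 1 of these 11 was still called with GC offsets. It was Map2k4, at 0.42 (SE 0.08, adjusted p = 0.00248, edgeR) and 0.26 (adjusted p = 0.0159, edgeR) with GC offsets. Srf, which binds the CArG box of Fos, fell by 0.37 in VTA males (SE 0.08, adjusted p = 0.00467, edgeR) and had 0.13 (adjusted p = 0.305, edgeR) with GC offsets.

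Of 18 other primary response genes tested in VTA, 1 rose over both sexes and 0 fell, below the 23.1% of all genes called. That gene was Egr1, which rose by 0.33 (SE 0.11, adjusted p = 0.0386, edgeR) and by 0.52 (adjusted p = 0.00886, edgeR) with GC offsets. Of 12 late response genes, Homer1, a scaffold of the postsynapse, rose by 0.34 (adjusted p = 0.00536, edgeR) and Vgf, a secreted neuropeptide precursor, fell by 0.35 (adjusted p = 0.0234, edgeR). With GC offsets these had 0.10 (adjusted p = 0.449, edgeR) and 0.00 (adjusted p = 0.990, edgeR).

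In S1 over both sexes, 18 of 18 other primary response genes had a fold change above 0, with a median of 0.59 on the log2 scale, and 13 had an unadjusted p under 0.05 (15.8% of all genes), but 0 were called by edgeR. In PrL over both sexes 18 of 18 were above 0, with a median of 0.40, 8 at an unadjusted p under 0.05 (19.1% of all genes) and 0 called. In VBT 10 of 18 were above 0 (median 0.04), in NAc 14 of 18 (median 0.14) and in VTA 9 of 18 (median 0.02). In S1, 11 of 12 late response genes were above 0, with a median of 0.15, 4 at an unadjusted p under 0.05 and 0 called, and AP-1 partners and upstream kinases had medians of 0.05 and 0.02. The lists were not tested against each other. These genes share libraries and moved together between them, so the 18 are not independent.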

How the data were processed

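The authors deposited 1 file of raw read counts per gene for each library, and GRCm38 and HTSeq are named in the submitters' processing notes. The HTSeq version, its mode and strand setting, the aligner and the annotation release are not given in the sources used here. Per the labels, the SMART-Seq v4 kit was used on 10 ng of total RNA; it amplifies full-length cDNA and marks no strand. Rows that name no gene held 9.99% to 18.0% of reads as "no feature" and were left out of library sizes. Of 55335 identifiers, 55154 were found in GENCODE M21, which gave symbols, exon lengths and GC content.

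CPM used the total of all genes. Each region was fitted by edgeR 4.0.16 (TMM, filterByExpr, robust quasi-likelihood test, Benjamini-Hochberg over all genes tested) with the 4 groups of sex and treatment. Regions were compared in 1 fit of 20 groups. Alternatives used limma 3.58.1, DESeq2 1.42.0 and the settings named in the closing section. The procedure was tested on simulated counts. The members and lists were chosen with earlier results of these data known. Genes named beside the members were some of those called in the 4 lists, the 3 to 5 with the highest mean correlation, and genes that share exon bases with a member. Arc was named outside these rules. Nothing states that replicates are separate litters, so p-values measure the spread between these samples. Replicate numbers did not pair treatments: 13 of 48 same-numbered pairs of fentanyl and water libraries had a correlation over 0.1 (median 0.049). VTA male water 3 entered only as an alternative.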

Additional observations from a re-analysis of the deposited data

Results flagged for a closer look

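In groups of 4 or 5 libraries, a library whose gap to its nearest neighbour took up an unusually large part of the group's range (Dixon's criterion at 95%) was found in 15 of 120 tests of 6 members, where chance gives about 1 in 20, or 6. Of the 15, 10 concerned Jund. It was highest at 68.1 CPM in VTA male fentanyl 4, 68.0 in NAc female fentanyl 4, 27.2 in S1 male water 5, 23.0 in VBT male fentanyl 3 and 11.5 in VBT male water 4. It was also highest at 8.24 CPM in PrL male fentanyl 4, 7.26 in PrL female fentanyl 2, 6.07 in NAc male fentanyl 4 and 5.53 in VBT female water 5, and lowest at 0.747 in VBT female fentanyl 2.

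The other 5 involved 2 numbers. Female fentanyl 3 was highest in Fos in VTA (21.5 CPM, the next library 10.3) and in Fosl2 in S1 (48.0 CPM, the next 36.3). Male fentanyl 1 was highest in PrL for Fosb (35.4 CPM, the next 15.6) and Fosl2 (63.7 CPM, the next 37.0), and lowest in VBT for Jun (62.3 CPM, the next 68.4). Junb had no such library.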

How the results depend on the processing

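Keeping VTA male water 3 gave 0 members called in VTA males and 0 over both sexes, and it reversed Jun in both (0.0682 and 0.0124). Offsets for GC content gave 0 in VTA males and 2 over both sexes (Fos and Fosl2) and reversed Jun over both sexes (0.00268). VTA over both sexes had 2 in limma-voom (Fosl2 and Jun), 2 when the share of reads outside exons was a covariate (Fos and Jun) and 0 without a filter on low counts. Limma-voom called 1 in S1 females (Jun) and reversed Jund in VTA males (-0.16) and over both sexes (-0.16). DESeq2 called 1 in the VBT difference between sexes, 2 in S1 and 2 in PrL over both sexes, and Jund in NAc females (1) and over both sexes (1).

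Leaving out single libraries gave 0 to 2 members called in VTA males, 1 to 2 in VTA over both sexes, 0 to 1 in S1 over both sexes and 0 in the other 17 comparisons; Jund ran from -0.65 to 3.73 in VTA males and from -0.17 to 2.01 over both sexes, reversed without VTA male fentanyl 4, and from -1.51 to 0.0163 in S1 over both sexes, reversed without S1 male water 5. With the replicate block, Fos in VTA over both sexes had 0.77 (adjusted p = 0.0432, edgeR), Jun in VTA males -0.24 (adjusted p = 0.0465, edgeR), and no treatment count changed. Between regions the block, by sex, treatment and number, raised NAc against S1 from 2 to 4 (Fosl2 and Junb gained) and PrL against S1 from 3 to 4 (Fosl2 gained). VTA male water 3 kept gave 1 for PrL against S1, 1 for NAc against S1 and 2 for NAc against PrL, and against VTA 3 for VBT, 4 for PrL and 4 for NAc. Water libraries alone gave 2 for NAc against PrL, 6 for S1 against VTA, 5 for NAc against VBT, 4 for S1 against VBT, 4 for PrL against VTA and 3 for VBT against VTA. GC offsets gave 3 for VBT against VTA (Fosl2 lost, adjusted p = 0.0861, edgeR), 4 for NAc against VTA (Jun lost, adjusted p = 0.0512, edgeR) and 2 for PrL against S1 (Jun lost, adjusted p = 0.0655, edgeR). Relations with Fos numbered 9 by r, 7 by rho, and without the 2 extreme libraries 8 by r and 6 by rho. The cause of these changes was not tested. Fosl1 and Fosb in VTA and VBT are limited by their low counts.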
